A study of Mus musculus with 6 samples.

Results

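In white adipose tissue (WAT), triglyceride is stored in lipid droplets and released by lipolysis. Adipose triglyceride lipase removes the first fatty acid, hormone-sensitive lipase the next and monoglyceride lipase the last, and perilipins and CIDE proteins coat the droplet and control access to it and its size. Catecholamines acting through cyclic AMP and protein kinase A stimulate the process, and insulin and receptors that inhibit adenylyl cyclase restrain it. The genes described here are Pnpla2, Lipe and Mgll, which encode these lipases, Abhd5, the coactivator of adipose triglyceride lipase, G0s2, its inhibitor, the droplet proteins Plin1, Plin2, Plin4 and Cidec, and Hcar2, an inhibitory receptor of adipocytes. A probe set was included when the annotation of the array assigned it to exactly 1 of these 10 genes. This gave 14 of 22690 probe sets, for 9 of the 10 genes and of 12394 genes with such a probe set. No probe set was assigned to Plin1, the main droplet coat protein of adipocytes, and its transcript was not analysed here.

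The TSR group comprised 3 samples of epididymal WAT from C57BL/6 mice that had been kept awake by gentle handling for 6 h per day on 5 consecutive days (timed sleep restriction, TSR) and were killed on the last of these days at Zeitgeber time (ZT) 18. The control group comprised 3 samples of the same strain and tissue, also taken at ZT18. No transgene or drug was used in either group, and the study's methods describe young adult males housed in groups. The sources used here do not state if an array held 1 animal or a pool, so that p-values measure the spread between these samples, which may be technical. Likewise the tissue is described as frozen and extracted with Trizol in the sample labels but as RNAlater-protected and extracted with a lipid tissue kit in the methods.

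Each sample was hybridised to 1 Affymetrix array, and the values are MAS5 signals in arbitrary units on a linear scale. Median signals were 136 to 141 on the TSR arrays and 127 to 131 on the control arrays, without overlap. Correlations of log2 signals across probe sets were 0.967 to 0.971 within groups and 0.953 to 0.957 between groups. Adipocyte markers were bright on all arrays, with a summed signal over 10 markers of 87178 to 102269 in TSR and 104840 to 125478 in control. Of these 10 markers 3 were higher and 7 lower after TSR, but the median log2 fold change of the list turned round with the scaling between arrays, with -0.26 as deposited and 0.04 after quantile normalization. Other markers moved with the groups. All 10 tested hepatocyte markers were higher after TSR, with summed signals over 15 measured markers of 13691 to 14219 in TSR and 522 to 603 in control, and 11 of 12 macrophage markers were lower, with summed signals of 17536 to 17937 in TSR and 27367 to 28533 in control. The 5′ minus 3′ difference of the actin control probe sets was -0.67 ± 0.0013 on the log2 scale in TSR and -1.22 ± 0.012 in control (SD, n = 3 each). In bulk samples fewer cells of a type cannot be told apart from less RNA per cell. The part of these differences in the results was not tested.

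Probe sets were called higher or lower after TSR with limma at a Benjamini-Hochberg adjusted p of at most 0.05 over the 14707 probe sets that passed a filter on dim signals, and all 14 probe sets of the lipolysis and lipid droplet genes passed it. Of these 14, 5 were called higher, 3 lower and 6 were not called, a called share of 57.1%, whereas 46.6% of all tested probe sets were called. For higher calls the share of all tested probe sets was 25.6%, and for lower calls it was 21.0%. The 3 arrays of each group did not overlap for 10 of the 14 probe sets, and this was so for 56.6% of all tested probe sets. Their median log2 fold change (TSR minus control) was 0.07, against 0.04 over all tested probe sets. The called share of these genes was near that of all tested probe sets, and the changes went both ways. Lipe, G0s2, Plin2, 1 of 4 Mgll and 1 of 2 Pnpla2 probe sets were higher, whereas Hcar2, Plin4 and Cidec were lower.

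Short stretches of the promoters of 3 of these genes hold the E-box CACGTG, the element bound by clock proteins such as CLOCK and BMAL1 and by other basic helix-loop-helix factors. They are shown because the tissue was sampled in a study of circadian disruption. With signals as deposited, Lipe, Plin2 and 1 of the Mgll probe sets were called higher after TSR, and the other Mgll probe sets were not called. Sequences are from RefSeq (mouse, GRCm38.p6), are written 5′ to 3′ on the strand of the gene and have the E-box in capitals.
Lipe, chr7:25396117-25396162, minus strand: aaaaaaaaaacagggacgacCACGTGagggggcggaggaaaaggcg
Mgll, chr6:88724348-88724393, plus strand: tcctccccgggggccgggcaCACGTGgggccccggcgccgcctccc
Plin2, chr4:86670058-86670083, minus strand: gccccaggcagctgggctatCACGTG
The first base of the E-box lies at -155 relative to the transcription start in Lipe, at -44 in Mgll and at -4 in Plin2. Windows of 250 bases before to 50 bases after the start were searched on both strands for 12 promoters of 9 of the 10 genes, Hcar2 being the gene without an entry, and the E-box was present in 3 of the 12 and in 7.15% of all 32851 mouse promoters. The nuclear receptor element AGGTCA was present in Abhd5 (at -69) and Plin2 (at -218) and in 16.3% of all promoters. A direct repeat of 2 such elements with 1 base between them, the form bound by PPARγ with RXR, was found in 0 of the 12 promoters and in 0.0396% of all. Only this exact sequence was searched, and 13 of all 32851 promoters hold it, so its absence here cannot show a lack of PPARγ sites. Lipe, Mgll and Cidec each have 2 annotated promoters, and the E-box was in 1 of the 2 for Lipe and for Mgll. G0s2 and 1 of the 2 Pnpla2 probe sets were also called higher after TSR, and neither gene had any of these elements in its window. A link between the elements and the changes was not tested.

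Lipe, encoding hormone-sensitive lipase, showed the largest log2 fold change among the lipase probe sets. The 3 TSR signals were 3843, 4013 and 3600, and the 3 control signals were 2363, 2657 and 2463. Every TSR array was above every control array. Means were 3819 ± 207 in TSR and 2495 ± 149 in control (SD, n = 3 each), a ratio of 1.53 and a log2 fold change of 0.61 ± 0.059 (SE, limma adjusted p = 5.8e-05). Over all 14 alternative settings the log2 fold change stayed between 0.51 and 0.67 and remained called.

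Pnpla2, encoding adipose triglyceride lipase, was measured by a bright and a dim probe set. The bright one (1428143_a_at) read 8821, 9074 and 7829 in TSR and 7475, 8092 and 7648 in control. One TSR array lay within the range of the control arrays, and the difference did not pass the test (log2 fold change 0.15, 95% interval 0.00097 to 0.29, limma adjusted p = 0.091). After quantile normalization it was called higher, with a log2 fold change of 0.37 (adjusted p = 0.00019), and over all alternatives the adjusted p ranged between 0.00019 and 0.71. The dim probe set (1428591_at) read 175, 147 and 157 in TSR and 110, 130 and 113 in control. These groups did not overlap, and this probe set was called higher, with a log2 fold change of 0.44 ± 0.12 (SE, limma adjusted p = 0.015). Without TSR replicate 1 that call was lost (adjusted p = 0.066, with a range over all alternatives of 0.012 to 0.066). The change of the bright probe set minus that of the dim one was -0.29 on the log2 scale (exact permutation p = 0.1, two-sided). With 3 arrays per group 0.1 is the smallest p such a test allows.

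The 4 probe sets of Mgll, the monoglyceride lipase gene, did not behave alike. The probe set 1453836_a_at read 3756, 3779 and 3559 in TSR and 2699, 2814 and 2556 in control, and the groups did not overlap. It was called higher, with a log2 fold change of 0.46 ± 0.050 (SE, limma adjusted p = 0.00012), and stayed called under all alternatives (0.35 to 0.52). The brightest probe set (1426785_s_at) read 6993, 7223 and 6509 in TSR and 7164, 8159 and 7086 in control. Its groups overlapped, and the log2 fold change of -0.11 did not pass the test (limma adjusted p = 0.20). For 1450391_a_at, TSR signals were 6710, 7162 and 6481 and control signals 6767, 7247 and 6533. These were nearly the same numbers in both groups (log2 fold change -0.01, limma adjusted p = 0.87). The dimmest Mgll probe set (1431331_at) lay between 50.04 and 67.7 in TSR and between 52.1 and 58.1 in control and was not called. Set against the brightest probe set, the change of 1453836_a_at differed by -0.57 (brightest minus other), that of 1450391_a_at by -0.10 and that of 1431331_at by -0.15. Over the 5 pairs of probe sets compared in Pnpla2, Mgll and Abhd5, exact permutation p was 0.1 for 4 pairs (0.125 after Benjamini-Hochberg adjustment) and 0.3 for the last. The direction of the brightest probe set of Mgll, and of both others that were not called, depended on scaling between arrays, since all 3 changed sign after quantile normalization, where 1450391_a_at was called higher (log2 fold change 0.18). After median centring the brightest probe set was called lower (log2 fold change -0.22, limma adjusted p = 0.049).

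The coactivator Abhd5 and the inhibitor G0s2 act on the same lipase in opposite directions. G0s2 read 9298, 9807 and 8876 in TSR and 6046, 6582 and 7328 in control. The lowest TSR signal was above the highest control signal. G0s2 was called higher, with means of 9327 ± 467 in TSR and 6652 ± 644 in control (SD, n = 3 each), a ratio of 1.40 and a log2 fold change of 0.49 ± 0.073 (SE, limma adjusted p = 0.00071). It remained called under all alternatives, between 0.38 after median centring and 0.72 after quantile normalization.

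Neither Abhd5 probe set was called. The brighter one (1417566_at) read 2260, 2389 and 2206 in TSR and 2445, 2574 and 2430.5 in control, with all TSR arrays below all control arrays (log2 fold change -0.12, 95% interval -0.23 to -0.01, limma adjusted p = 0.065). The other (1417565_at) read 1546, 1598 and 1752 in TSR and 1518, 1532 and 1517 in control, with all TSR arrays above all control arrays (log2 fold change 0.10, adjusted p = 0.16). The pair of probe sets therefore ranked the groups in opposite order, and the change of the brighter minus that of the other was -0.22 (exact permutation p = 0.1).

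To compare lipase, coactivator and inhibitor within each sample, log2 signals of the brightest probe sets were subtracted array by array. Only the change of such a difference between the groups can be read, because signals of different probe sets are not on a common scale. The Pnpla2 minus G0s2 difference was -0.08, -0.11 and -0.18 in TSR and 0.31, 0.30 and 0.06 in control. All TSR arrays were below all control arrays, by -0.34 in the mean (a fold of 0.787). For Abhd5 minus G0s2 the differences were -2.04, -2.04 and -2.01 in TSR and -1.31, -1.35 and -1.59 in control, a change of -0.61 (a fold of 0.655). Each of these 2 comparisons had an exact permutation p of 0.1 (0.1 after adjustment over both), and both stayed negative after quantile normalization and with each array left out. With the mean over the probe sets of each gene the changes were -0.20 for Pnpla2 minus G0s2 and -0.50 for Abhd5 minus G0s2.

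**Figure D1:**
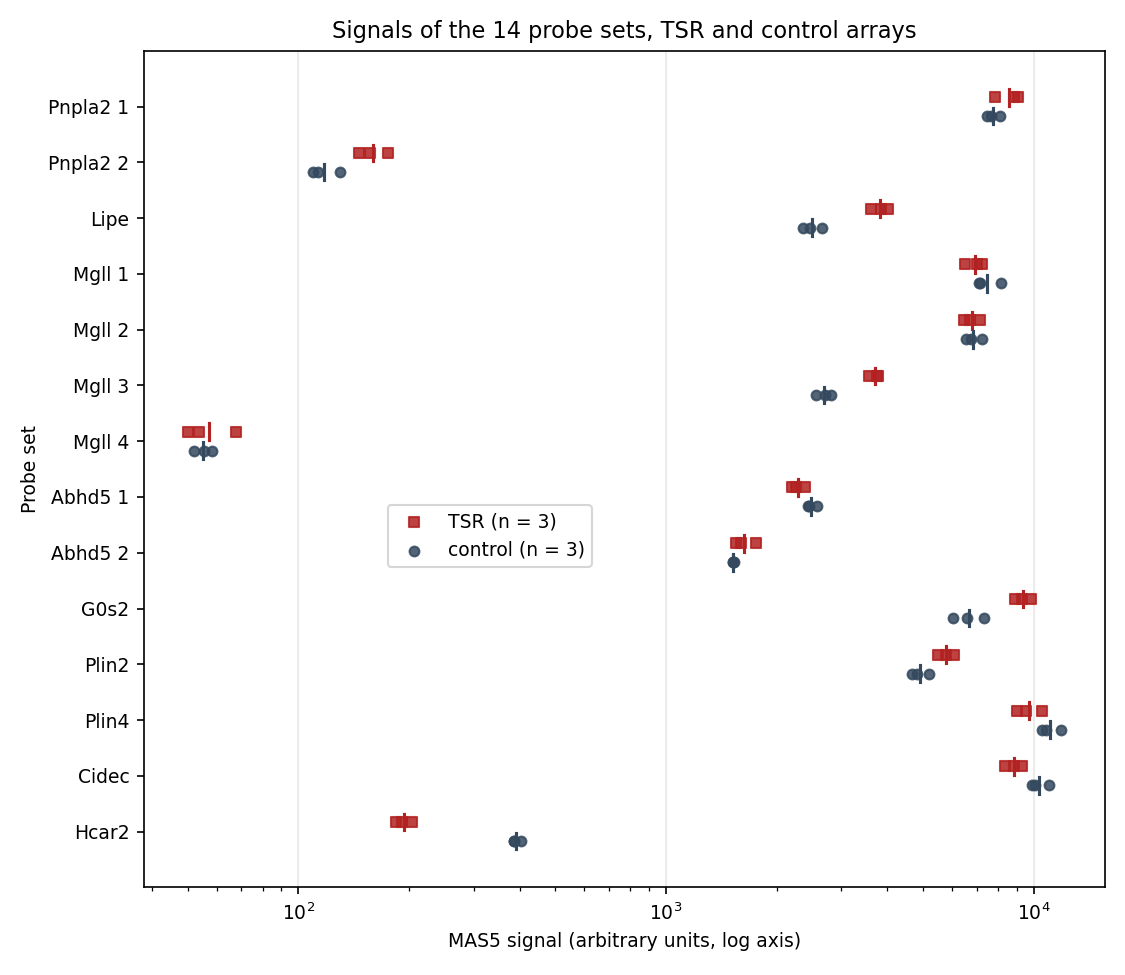
MAS5 signals (log axis, arbitrary units) of the 14 probe sets on 3 TSR arrays (red squares, upper of each pair) and 3 control arrays (dark circles), with the group mean as a vertical line and the probe sets of a gene numbered from the brightest. Lipe, G0s2 and the third Mgll probe set lie higher in TSR without overlap, whereas Hcar2 reads 184 to 204 in TSR and 386 to 402 in control.

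Among the droplet proteins, Plin2, the perilipin found in most cell types and in liver, was higher after TSR. It read 5763, 6086 and 5498 in TSR and 4808, 5201 and 4673 in control. The groups did not overlap, and the log2 fold change was 0.24 ± 0.057 (SE, limma adjusted p = 0.0081), a ratio of 1.18. The call was lost after median centring (adjusted p = 0.15) and with the methods' t-test (adjusted p = 0.052), within a range over all alternatives of 0.00016 to 0.15. Of the transcripts that mark other cells with much Plin2, those of hepatocytes were higher after TSR and those of macrophages lower, as given above, and their part in the Plin2 result was not tested.

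Plin4, a perilipin abundant in white adipocytes, and Cidec (fat-specific protein 27), which promotes fusion of droplets into a single large one, had lower signals after TSR. Plin4 read 9552, 10519 and 8997 in TSR and 10825, 11867 and 10553 in control. The highest TSR array lay just below the lowest control array, and the log2 fold change was -0.19 ± 0.070 (SE, limma adjusted p = 0.047). Cidec read 8849, 9299 and 8377 in TSR and 10076, 10983 and 9866 in control. Here too the groups did not overlap, and the log2 fold change was -0.22 ± 0.060 (SE, limma adjusted p = 0.015). Both directions depended on the scaling between arrays. After quantile normalization Plin4 had a log2 fold change of 0.12 and was called higher (adjusted p = 0.017), and Cidec had one of 0.055 and was not called (adjusted p = 0.16), with ranges over all alternatives of 0.00067 to 0.15 for Plin4 and 0.00037 to 0.16 for Cidec. The Plin4 call was also lost in 5 of the 6 fits that left out 1 array, the exception being the fit without TSR replicate 2, and the Cidec call was lost without TSR replicate 1 (adjusted p = 0.051). With the methods' t-test both calls were lost (adjusted p = 0.15 for Plin4 and 0.069 for Cidec), and the Plin4 call was also lost with limma without the trend (0.097) and with no filter (0.091).

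Log2 fold changes of signals as deposited differed with the brightness of the probe sets. Over all tested probe sets, the median log2 fold change was 0.07 for mean log2 signals between 8 and 9, -0.06 between 11 and 12, -0.18 between 12 and 13 and -0.34 for the 217 probe sets at 13 or above, of which 84.8% were called lower. These bins of signal were chosen after the data were seen. Plin4 (mean log2 signal 13.3) and Cidec (13.2) lie in the brightest bin, and both fell by less than its median. G0s2 (12.9) and Plin2 (12.4) lie in the bin below and were called higher, which was the case for 13.3% of its 578 probe sets. Pnpla2, by its bright probe set (12.99), also lies in that bin and had a positive log2 fold change. The Mgll probe sets 1426785_s_at (12.8) and 1450391_a_at (12.7) lie there too, with log2 fold changes of -0.11 and -0.01. Neither of them, nor the Pnpla2 probe set, was called with signals as deposited. After quantile normalization the median was close to 0 in every bin (lowest -0.05), and 8 of the 14 probe sets were called higher and 1 lower, against 21.1% higher and 23.0% lower over all tested probe sets. After median centring, which moved the median of all tested probe sets to -0.07, 4 of the 14 were called higher and 5 lower, against 16.7% higher and 29.7% lower over all tested probe sets. Which scaling fits the tissue was not tested, and sign changes were also seen in the dim Mgll probe set 1431331_at and in Abhd5 1417565_at.

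**Figure D2:**
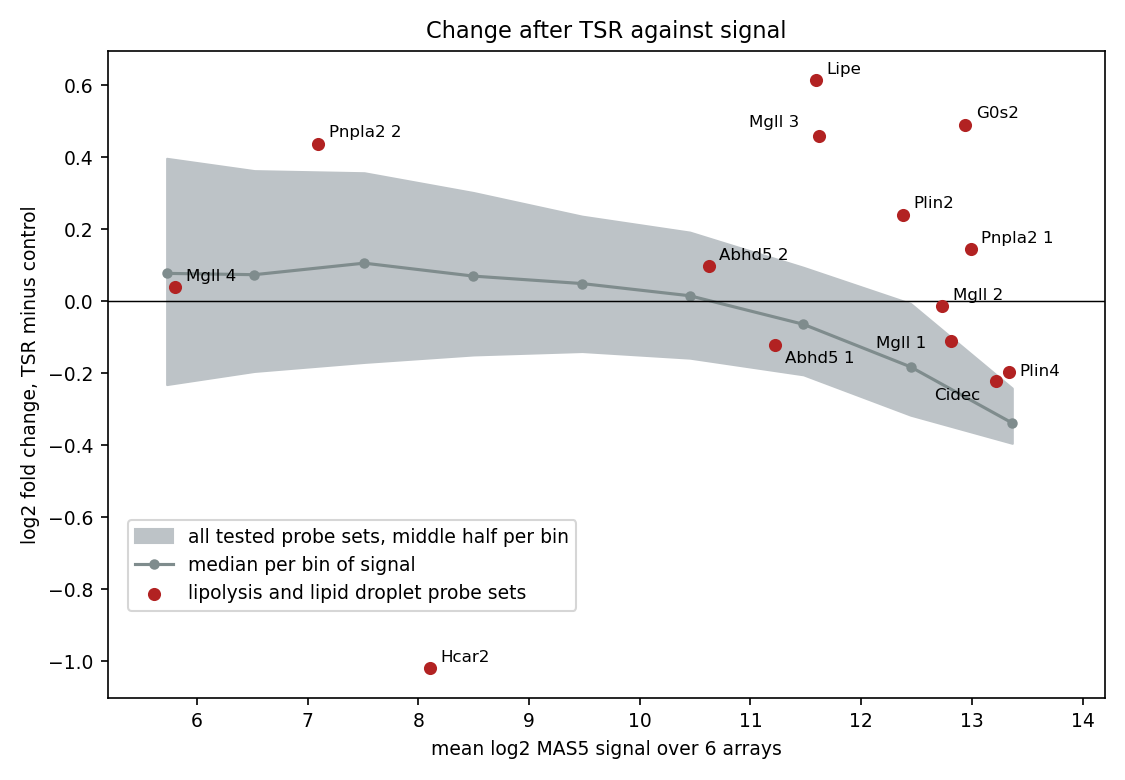
Log2 fold change (TSR minus control) against the mean log2 MAS5 signal over 6 arrays for the 14 probe sets (red points), with the median (grey line) and the middle 50% (grey band) of all tested probe sets per bin of signal. The median falls to -0.34 in the brightest bin, and Plin4 and Cidec, like G0s2, Lipe and Plin2, lie above the middle 50% of their bin, whereas Hcar2 lies far below it. The band is drawn as a straight line between the mean signals of the bins, so that Cidec appears just inside its upper edge.

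Hcar2 showed the largest change of all 14 probe sets. It encodes the receptor for 3-hydroxybutyrate and nicotinic acid, which inhibits adenylyl cyclase and thereby lipolysis, and it is known from adipocytes, macrophages and neutrophils. The probe set read 184, 204 and 192 in TSR and 386, 402 and 387 in control. The groups were far apart, with means of 193 ± 9.65 in TSR and 392 ± 9.13 in control (SD, n = 3 each), a ratio of 0.494. The log2 fold change was -1.02 ± 0.074 (SE, limma adjusted p = 1.2e-05), and under all alternatives it stayed called and between -1.13 and -0.99. At a mean log2 signal near 8, Hcar2 was in a range of brightness where the median of all tested probe sets was slightly positive. Macrophage markers were lower in the same TSR samples, with Lyz2, the brightest, at a log2 fold change of -0.52, Clec10a at -1.05 and Ccl8 at -2.57, and of 3 tested neutrophil markers 2 were lower (S100a9 -1.21, S100a8 -0.63). Their part in the fall of Hcar2 was not tested.

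**Figure D3:**
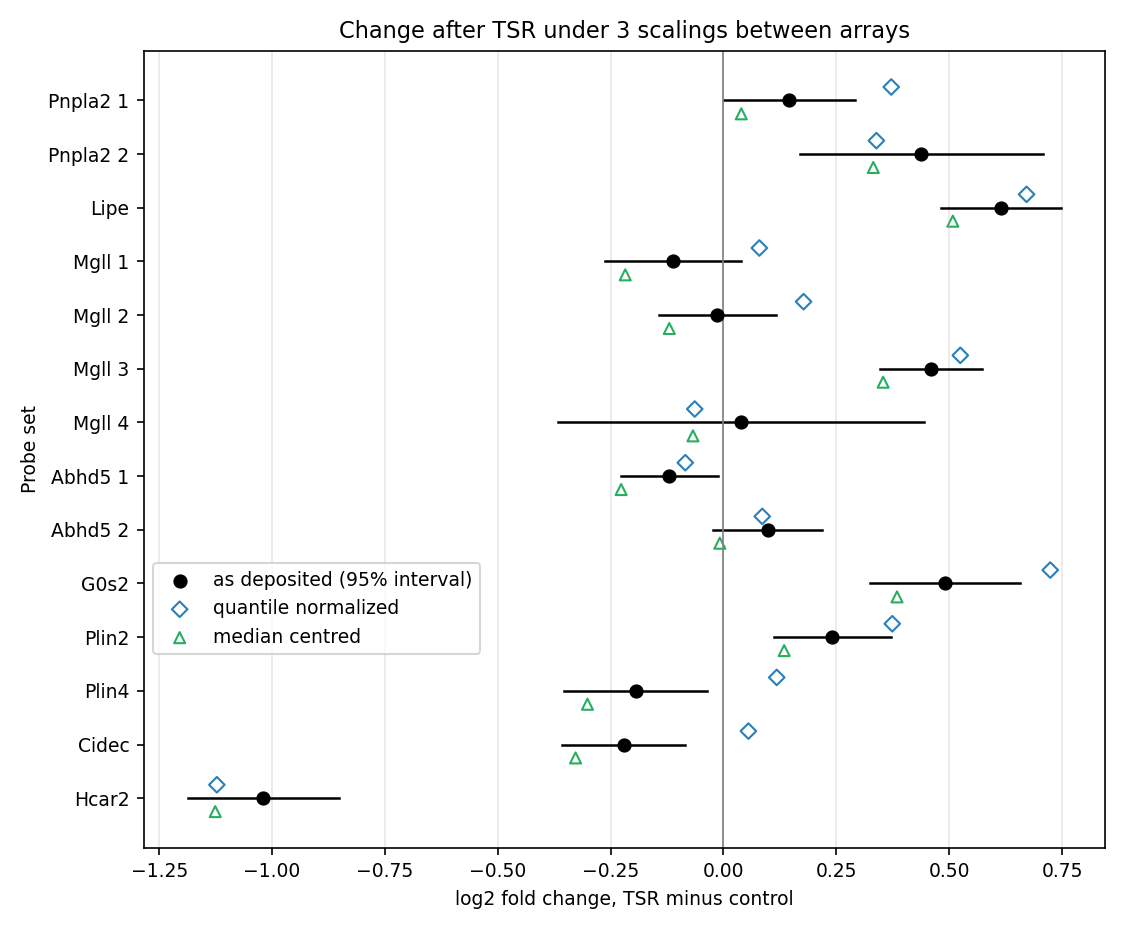
Log2 fold changes (TSR minus control) of the 14 probe sets with 95% intervals for signals as deposited (black), and the values after quantile normalization (blue diamonds) and median centring (green triangles). Lipe, G0s2, the third Mgll probe set and Hcar2 keep their direction under all 3 scalings, whereas Plin4 and Cidec change sign after quantile normalization.

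To place these genes in their pathway, 101 companion genes on 6 lists were examined, each by its brightest tested probe set. Of 72 tested companion genes 27 were higher, 22 lower and 23 not called, with a median log2 fold change of 0.01. The balance depended on scaling, since quantile normalization gave 27 higher and 15 lower, whereas median centring gave 17 higher and 30 lower. Over all 8619 tested genes 24.0% were called higher and 23.0% lower, and the median was also 0.01.

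In the list of lipolytic signalling genes, not all of which stimulate lipolysis, 3 of 9 tested genes were higher after TSR and 0 were lower (median log2 fold change 0.05). These counts depended on scaling, since quantile normalization gave 3 higher and 1 lower, whereas median centring gave 2 of each and a median of -0.06. Prkaca, the catalytic subunit of protein kinase A that phosphorylates hormone-sensitive lipase and perilipin, averaged 498 ± 13.7 in TSR and 354 ± 8.14 in control (SD, n = 3 each; log2 fold change 0.49, limma adjusted p = 0.00020). Npr3, a clearance receptor of natriuretic peptides and so not a stimulatory gene, rose by 0.35 on the log2 scale. For Npr3 the study lists another probe set with a larger rise after TSR. The mitochondrial kinase anchor Akap1 rose by 0.22. The Akap1 call was lost after quantile normalization (adjusted p = 0.052) and after median centring (adjusted p = 0.28). Gnas, the stimulatory G protein and the brightest gene of this list, was not called as deposited (-0.07), was called higher after quantile normalization (0.12) and lower after median centring (-0.18).

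In the list of genes that restrain lipolysis, to which Hcar2 belongs by its function, 3 of 10 tested genes were higher and 5 lower (median -0.16). Quantile normalization gave 3 higher and 4 lower, and median centring 2 higher and 5 lower. Irs2, an adaptor of the insulin receptor, averaged 160 ± 9.71 in TSR and 317 ± 2.98 in control (SD, n = 3 each; log2 fold change -0.98, limma adjusted p = 2.6e-05), which is close in size to the fall of Hcar2. The related adaptor Irs1 fell by 0.26 and the short-chain fatty acid receptor Ffar2, another inhibitory receptor of adipocytes, by 0.52. By contrast Akt2, the insulin-responsive kinase of adipocytes, was higher (0.65), as were the prostaglandin receptor Ptger3 (0.33) and the activin receptor-like kinase gene Acvr1c (0.30). Another Akt2 probe set with a larger rise after TSR is listed by the study. The Acvr1c call was lost after quantile normalization (adjusted p = 0.14) and after median centring (adjusted p = 0.17). Gnai1, an inhibitory G protein and the brightest gene here, was not called as deposited (-0.03) and was called higher after quantile normalization (0.20).

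Of 19 other lipid droplet proteins 7 were higher and 6 lower (median 0.08). Quantile normalization gave 6 higher and 2 lower, and median centring gave 4 higher and 8 lower with a median of -0.03. Plin3 averaged 599 ± 98.6 in TSR and 412 ± 73.5 in control (SD, n = 3 each; log2 fold change 0.54, limma adjusted p = 0.013), and Plin5, the perilipin of oxidative tissues, rose by the same amount (0.54, adjusted p = 0.0064). The largest rises were in Sqle (0.83) and Nsdhl (0.75), enzymes of sterol synthesis that also locate to droplets. The largest falls were in Mettl7a1 (-0.33), in the seipin gene Bscl2 (-0.29), which is needed for droplet formation, and in Cav1 (-0.23), the caveolin of adipocytes and endothelium. Cav1 and Bscl2 are bright like Plin4 and Cidec and depended on scaling in a similar manner. After quantile normalization Cav1 was called higher (0.10) and Bscl2 was not called (-0.06).

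Among 12 other lipid hydrolases 6 were higher and 4 lower (median 0.12). Quantile normalization gave 5 higher and 2 lower, and median centring 4 higher and 5 lower. Abhd6, which like Mgll hydrolyses monoacylglycerols, averaged 987 ± 39.8 in TSR and 681 ± 49.0 in control (SD, n = 3 each; log2 fold change 0.54, limma adjusted p = 0.00020). Abhd12, a lipase of lysophospholipids and monoacylglycerols, rose by 0.43 and Naaa, an acid amidase, by 0.40. The study lists another Abhd12 probe set with a larger rise after TSR. Ces1f, a carboxylesterase, averaged 2875 ± 136 in TSR and 4732 ± 283 in control (SD, n = 3 each; log2 fold change -0.72, limma adjusted p = 2.1e-05). Pnpla8, a calcium-independent phospholipase related to Pnpla2, fell by 0.28. Lpl, the lipoprotein lipase and the brightest gene of the list, was called lower as deposited (-0.39) and had a log2 fold change of -0.01 after quantile normalization. Aadac, an esterase abundant in liver, was below the filter and not tested, with signals of 84.6, 66.0 and 94.9 in TSR and 21.4, 2.90 and 3.61 in control.

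For the fate of released fatty acids and glycerol, 3 of 12 tested genes were higher and 4 lower (median -0.12, and 0.11 after quantile normalization). Quantile normalization gave 5 higher and 3 lower, and median centring 2 higher and 6 lower. Gpd1, which makes the glycerol 3-phosphate for triglyceride synthesis from glucose, averaged 5711 ± 302 in TSR and 2561 ± 134 in control (SD, n = 3 each; log2 fold change 1.16, limma adjusted p = 1.3e-06). Pck1, the key enzyme of glyceroneogenesis, which makes it from other precursors, averaged 1975 ± 181 in TSR and 4149 ± 299 in control (log2 fold change -1.07, limma adjusted p = 1.0e-05). These were the largest changes in either direction among the tested companion genes. The fatty acid transporter Slc27a1 (0.48) and the last enzyme of triglyceride synthesis, Dgat2 (0.25), were also higher, the Dgat2 call being lost after median centring (adjusted p = 0.23). For Dgat2 the study lists another, less bright probe set with a larger rise after TSR, and for Gpd1 another with a larger rise. Fabp4 (-0.43) and Cd36 (-0.25), the fatty acid carrier and translocase of adipocytes, were called lower as deposited, but after quantile normalization Fabp4 was not called (-0.08) and Cd36 was called higher (0.10). These values are of the brightest probe set only, and the study lists another Fabp4 probe set with a larger fall after TSR.

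Of 10 tested transcriptional regulators of adipocytes 5 were higher and 3 lower (median 0.16). Quantile normalization also gave 5 higher and 3 lower, whereas median centring gave 3 higher and 4 lower. Mlxipl (ChREBP), a glucose-responsive activator of lipid synthesis, averaged 3560 ± 199 in TSR and 2025 ± 39.0 in control (SD, n = 3 each; log2 fold change 0.81, limma adjusted p = 4.7e-06). Rxra rose by 0.65 and Cebpa by 0.40. Srebf1, an activator of fatty acid and sterol synthesis and the brightest gene of the list, rose by 0.24 (limma adjusted p = 0.0072), a call that was lost after median centring (adjusted p = 0.16). Pparg, whose product with RXR is a known activator of most of the droplet genes described here, rose by 0.25, and its call was also lost after median centring (adjusted p = 0.076). Ebf2 (-0.39), the coactivator Ncoa1 (-0.20) and Cebpb (-0.17) were lower.

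**Figure D4:**
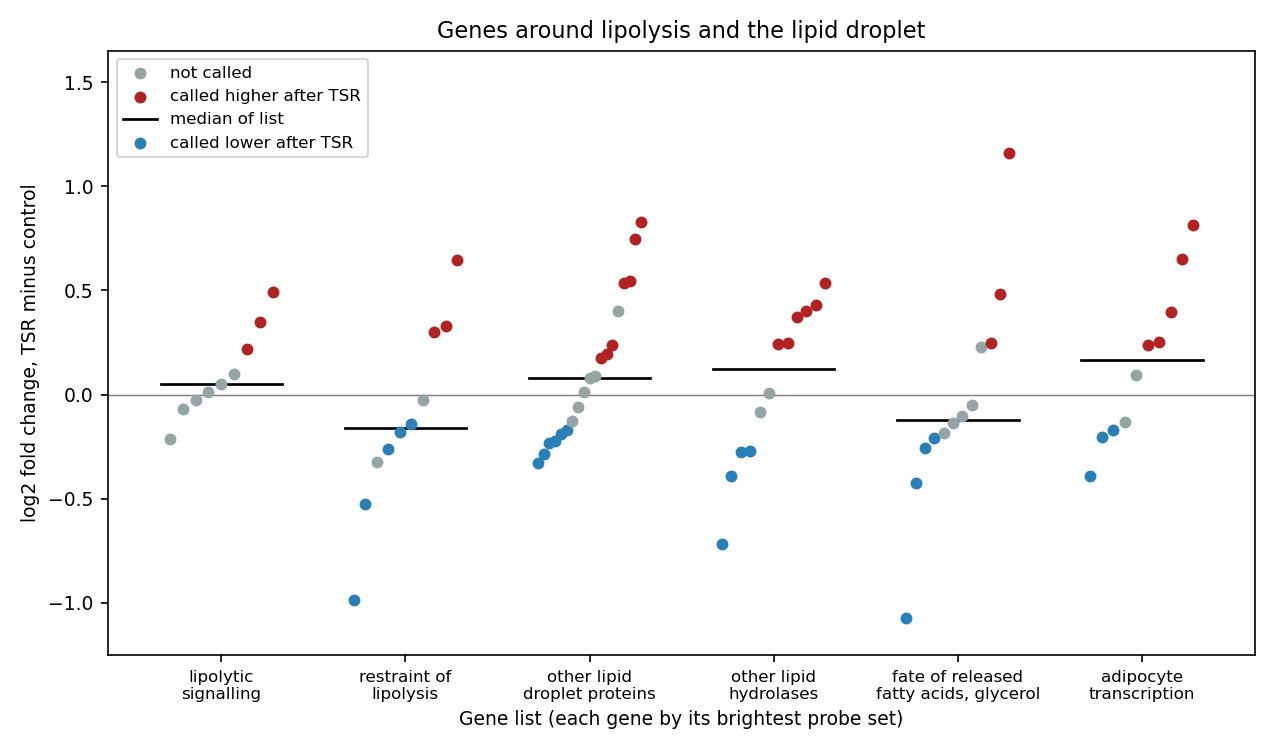
Log2 fold change (TSR minus control) of the tested companion genes on 6 lists, each by its brightest probe set, coloured by call, with the median of each list as a black line. Called genes lie on both sides of 0 in 5 lists, and lipolytic signalling has 3 higher and 0 lower calls with signals as deposited (3 and 1 after quantile normalization, 2 and 2 after median centring), while Gpd1 (1.16) and Pck1 (-1.07) are the extremes among tested genes.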

How the data were processed

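Epididymal WAT RNA of 3 TSR and 3 control samples was hybridised to 1 array each. MAS5 signal intensities had been obtained by the authors in Affymetrix Expression Console, and the deposited intensity values are linear and scaled by the authors to a common target. Averaged over probe sets without both extremes, the signal was 500.2 on every array. Of the probe sets, 20380 have 1 gene symbol, 691 several and 1555 none in the platform annotation, and 20364 of the single-gene ones have an Entrez identifier listed in RefSeq. Raw scans and expression calls were not used here.

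Signals were taken to log2 with no further scaling. A total of 64 control probe sets and, of the rest, the dimmest 35% (mean log2 signal below 5.45) were removed. TSR and control were compared in R 4.3.3 with limma 3.58.1, using moderated variances with a trend on intensity (prior degrees of freedom 4.86), two-sided tests and Benjamini-Hochberg adjustment over all tested probe sets at a threshold of 0.05. Within groups the median SD of log2 signals was 0.092. Precision is limited by the number of arrays. Ratios are ratios of mean signals. Intervals are 95% confidence intervals. Two-sided exact permutation tests were used for differences between probe sets. The computation was tested on simulated data.

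The member genes, the 6 companion and 9 marker lists and the tests were chosen with earlier results of these data known. Named genes were all members, per companion list up to 3 called genes with the largest rise and fall and the brightest gene, and per marker list the brightest and up to 2 with the largest change. Plin5, Pparg, Ucp1, Aadac and Adam7 were named after their values were seen. Alternatives concerned the test (the methods' t-test with equal variances on linear signals, or limma without the trend), the scaling (quantile normalization or median centring), the filter (none, or the dimmest 50% removed), a floor on each array at its 25th percentile, a block for the replicate number, leaving out each array in turn and, for companion genes and ratios, averaging the probe sets of each gene. Promoters were taken from RefSeq.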

Additional observations from a re-analysis of the deposited data

How the results depend on the processing

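Lipe, G0s2, Hcar2 and the Mgll probe set 1453836_a_at kept direction and call under all 14 alternatives. Of the 14 lipolysis and lipid droplet probe sets, 8 were higher after quantile normalization, against 5 as deposited. The number that were lower was 3 as deposited, 1 with the methods' t-test, 1 after quantile normalization, 5 after median centring and between 1 and 4 when 1 array was left out. Over all 14707 tested probe sets, lower calls numbered 3082 as deposited, 2304 with the methods' t-test, 3380 after quantile normalization and 4363 after median centring. Higher calls over all tested probe sets were 2452 after median centring, against 3768 as deposited. Of the companion genes 17 were higher and 30 lower after median centring, 27 and 15 after quantile normalization, 20 and 13 with the methods' t-test and 33 and 13 with probe sets averaged per gene. The Pnpla2 to G0s2 change was -0.20 with the mean of probe sets, and the Abhd5 to G0s2 change was -0.50 with the mean of probe sets and -0.81 after quantile normalization.

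Signs turned round after quantile normalization for Mgll 1426785_s_at (0.079), Mgll 1450391_a_at (0.18), Mgll 1431331_at (-0.064), Plin4 (0.12) and Cidec (0.055), and after median centring for Mgll 1431331_at (-0.068) and Abhd5 1417565_at (-0.0081). With 1 array left out, Mgll 1431331_at lay between -0.090 and 0.13 and Mgll 1450391_a_at between -0.053 and 0.028. Abhd5 1417566_at was called lower after median centring, with the replicate block and without TSR replicate 2. Mgll 1426785_s_at was called lower after median centring and with the replicate block. The cause was not tested.

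The replicate numbers in the labels are shared by the groups, but the labels do not say that they mark pairs. Deviations from the group means correlated with r = 0.02, 0.19 and 0.17 for equal numbers, and TSR replicate 1 correlated best with control replicate 2 (0.04). With the replicate block 6 probe sets were higher and 5 lower (4043 and 3391 over all tested probe sets), with Pnpla2 1428143_a_at, Mgll 1426785_s_at and Abhd5 1417566_at called in addition. The planned ratio of Plin1 to Plin2 could not be computed. With the lowest 50% left out, Mgll 1431331_at was not tested. Dim probe sets limit precision most, the 95% interval of Mgll 1431331_at being the widest of the 14.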

Other observations

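Other marker lists describe the tissue in which the lipolysis genes were measured. Of 6 tested markers of brown or beige adipocytes 4 were higher after TSR and 0 lower, against 24.0% higher and 23.0% lower over all tested genes. Dio2, the deiodinase that activates thyroid hormone, read 159, 128 and 139 in TSR and 29.7, 25.4 and 26.5 in control (log2 fold change 2.38), Elovl3, a fatty acid elongase, had a log2 fold change of 1.86 and Cox8b, the brightest, one of 0.41. Ucp1, the uncoupling protein that defines these cells, was not measured above the filter in either group, with a mean signal of 2.09 in TSR and 1.95 in control. Tbx1, also on this list and below the filter, went the other way without overlap. It read 28.9, 26.8 and 29.4 in TSR and 50.6, 41.2 and 38.8 in control. Of 10 adipocyte markers 3 were higher and 7 lower as deposited, and 4 were higher and 1 lower after quantile normalization. The insulin-responsive glucose transporter Slc2a4 (1.04) and leptin, Lep (0.65), were higher, with the same direction after quantile normalization and median centring. Fabp4, the brightest, was lower (-0.43) but was not called after quantile normalization (-0.08).

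Of 8 tested markers of fibroblasts and progenitors 1 was higher and 6 were lower. Lum, a collagen-binding proteoglycan, read 1073, 1128 and 999.4 in TSR and 2176, 2065 and 2049 in control (log2 fold change -0.98), and Dcn, the brightest, had a log2 fold change of -0.52. The exception was Pi16, a marker of adipose progenitors, which read 257, 245 and 302 in TSR and 49.98, 59.9 and 64.4 in control (log2 fold change 2.21). Endothelial markers were mixed, with 3 of 8 higher and 2 lower (Tie1 0.65, Tek -0.50, and Cdh5, the brightest, 0.10 and not called), as were mesothelial markers, with 1 of 6 higher and 2 lower (Msln 0.68, Wt1 -0.72 and Upk3b, the brightest, -0.21). Among hepatocyte markers Alb, the brightest, averaged 3205 ± 143 in TSR and 129 ± 31.6 in control (SD, n = 3 each), with larger log2 fold changes in Serpina1c (5.47) and Bhmt (5.34). None of the 4 measured markers of epididymal epithelium passed the filter. Of these 4, Adam7 read 46.4, 31.8 and 35.7 in TSR and 3.68, 8.90 and 15.9 in control, without overlap, and its part in the results was not tested.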
